A study of Mus musculus with 6 samples.

Results

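The genes described here are 7 targets of PPARalpha that lie outside the enzymes of fatty acid oxidation: Pdk4, Vnn1, Creb3l3, Fgf21, Angptl4, Mgll and Txnip. They were taken by symbol from the deposited table of 54532 genes, and all 7 had 1 row each and passed the filter on low values that 11856 genes passed (at least 0.5 FPKM in at least 3 of 6 libraries; FPKM is a read number scaled to transcript length and to sequencing depth). PPARalpha is a nuclear receptor of hepatocytes that is activated by fatty acids and pairs with RXR. In fasting it turns on the burning of fat and the making of ketone bodies, and it also induces genes that signal the fasted state to other tissues, spare glucose and handle lipid at the cell border. The 7 genes stand for that second arm: a transcription factor (Creb3l3), secreted proteins (Fgf21, Angptl4), enzymes (Pdk4, Mgll, Vnn1) and a regulator of glucose uptake and redox state (Txnip). Txnip and Fgf21 are also known as targets of ChREBP, the transcription factor that responds to glucose, so the set receives signals of fasting and of feeding.

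RNA was sequenced from liver of mice with a hepatocyte-specific deletion of G3bp1, an RNA-binding protein of stress granules (HKO, 3 libraries), and of floxed litter controls (Flox, 3 libraries). Mice of both groups started on a high-fat diet at 6 weeks of age and ate it for 12 weeks, and no group on another diet was analysed here. The study asked how G3BP1 affects steatohepatitis. The sources used here do not give the driver of the deletion, the deleted exons, the sex or the fed or fasted state at sampling. They also do not say that the 3 libraries of a group are 3 mice, and p-values therefore reflect spread among libraries only, which may be technical. G3bp1, the targeted gene, stood at 8.46, 8.46 and 9.10 FPKM in Flox and at 4.66, 4.27 and 4.44 FPKM in HKO, so each library matched its label (log2 difference -0.83, adjusted p = 0.11 in limma). The liver is a mixture in which cells other than hepatocytes keep the gene, and in bulk tissue fewer cells of a type and less RNA per cell cannot be told apart. The reads assigned to genes numbered 15804115 in the shallowest library and 17954066 in the deepest, and hepatocyte markers were high in every library (Alb, albumin, at 25430 to 33879 FPKM).

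None of the 7 genes passed the test between HKO and Flox. In limma, 0 of 7 had an adjusted p under 0.05 (Benjamini-Hochberg, 11856 genes), where 1 gene or 0.00843% of all tested passed. At an unadjusted p under 0.05 there was 1 of 7, Mgll, against 7.62% of all tested. With limma's voom on reads recovered from the FPKM the counts over the 7 genes were likewise 0 and 1. The mean was lower in HKO in 5 of the 7 (Pdk4, Vnn1, Creb3l3, Mgll, Txnip) and higher in 2 (Fgf21, Angptl4), where 51.2% of all tested genes had a lower and 48.8% a higher mean. The median difference of the 7 genes was -0.31 on the log2(FPKM + 1) scale and that of all tested genes was -0.01. The median of the 7 was -0.17 without Flox 2, -0.19 without HKO 1, -0.14 under TPM and 0.0723 with array weights, where 3 of the 7 had a lower mean. Under TPM the all-gene median was 0.15, and relative to it that of the 7 was -0.28. All HKO libraries lay below all Flox libraries in 1 of the 7, against 7.21% of all tested, and above them in 0 of the 7, against 6.06%.

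Per unit of length, the 7 transcripts spanned a wide range of levels. Averaged over the 6 libraries the order was Creb3l3 (101.9 FPKM), Txnip (60.5), Mgll (42.2), Vnn1 (29.1), Angptl4 (25.1), Fgf21 (7.30) and Pdk4 (2.84). Creb3l3 was above Txnip, Mgll above Vnn1, Angptl4 above Fgf21 and Fgf21 above Pdk4 in 6 of 6 libraries. Txnip was above Mgll in 4 of 6 libraries and Vnn1 above Angptl4 in 5 of 6, so these neighbours were not ordered beyond their spread. Among neighbours in this order, the ranges over libraries were separate for Angptl4 (lowest 16.5 FPKM) and Fgf21 (highest 9.89 FPKM) and overlapped for the other pairs. Creb3l3 lay at the 95.7th percentile of all tested genes and Pdk4 at the 41.5th.

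**Figure D1:**
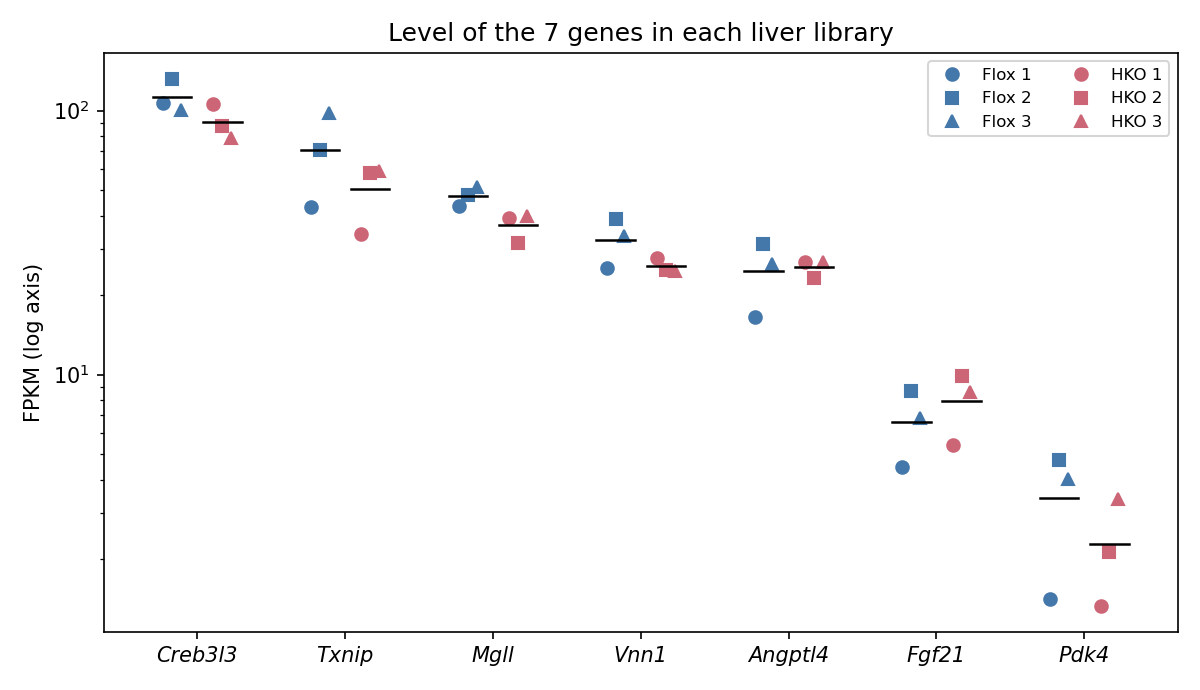
Level of each gene in each library in FPKM on a log axis, Flox in blue and HKO in red, with the library number as the marker shape and the group mean as a black bar (3 libraries per group). Mgll is the gene whose groups do not overlap, and library 1 of each group is lowest for Pdk4, Fgf21 and Txnip.

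Creb3l3 (ENSMUSG00000035041, chromosome 10, 81084324 to 81098874 on the minus strand, GRCm38) encodes CREBH, a membrane-bound transcription factor of liver that is cut free in fasting and acts with PPARalpha on Fgf21. It stood at 107.2, 131.3 and 100.5 FPKM in Flox 1, 2 and 3 and at 106.0, 87.2 and 79.0 FPKM in HKO 1, 2 and 3. HKO 2 and HKO 3 were below every Flox library, and HKO 1 lay inside the Flox range. The means were 113 ± 16.2 and 90.7 ± 13.8 FPKM (SD, n = 3), or 19.7% lower in HKO. The difference was -0.31 on the log2 scale (95% interval -0.69 to 0.06, adjusted p = 0.678 in limma), and the exact two-sided permutation p was 0.2, where 3 against 3 libraries cannot go below 0.1. Without Flox 2 the difference was -0.20. None of its exonic bases overlapped another gene.

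Pdk4 (ENSMUSG00000019577, chromosome 6, 5483351 to 5496309 on the minus strand) encodes a kinase that inactivates pyruvate dehydrogenase and so spares glucose. It stood at 1.41, 4.76 and 4.03 FPKM in Flox 1, 2 and 3, on 76, 248 and 238 reads. HKO 1, 2 and 3 gave 1.33, 2.13 and 3.36 FPKM from 83, 125 and 219 reads. Library 1 of each group was the lowest of its group, and the groups overlapped over most of their range. The spread within Flox was 3.38-fold from lowest to highest and exceeded counting error, since the exact 95% Poisson intervals were 1.11 to 1.76 FPKM in Flox 1 and 4.18 to 5.39 FPKM in Flox 2 (counting error only). The means were 3.40 ± 1.76 and 2.28 ± 1.02 FPKM (SD, n = 3), with a log2 difference of -0.38 (95% interval -1.27 to 0.52, adjusted p = 0.775 in limma). The difference was -0.13 without Flox 2, -0.15 without HKO 1, -0.23 without Flox 3, -0.61 without HKO 3 and -0.76 without Flox 1, and array weights turned it to 0.18.

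Mgll (ENSMUSG00000033174, chromosome 6, 88724412 to 88828360 on the plus strand) encodes monoglyceride lipase, which splits the last fatty acid from glycerol and breaks down the endocannabinoid 2-arachidonoylglycerol. Its level was 43.4, 47.8 and 51.5 FPKM in Flox 1, 2 and 3 and 39.2, 31.6 and 39.8 FPKM in HKO 1, 2 and 3. Every HKO library was below every Flox library, the narrowest gap being that between Flox 1 and HKO 3. The means were 47.6 ± 4.07 and 36.9 ± 4.58 FPKM (SD, n = 3), or 22.6% lower in HKO. The log2 difference was -0.36 (95% interval -0.67 to -0.05, not adjusted for the number of genes). The unadjusted p was 0.027 and the adjusted p 0.648 in limma, so Mgll did not pass, and the exact permutation p was 0.1, the smallest the design allows. Of its exonic bases 3.29% overlap Gm26588 on the other strand, which stood at 1.70 to 2.70 FPKM.

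Vnn1 (ENSMUSG00000037440, chromosome 10, 23894688 to 23905343 on the plus strand) encodes vanin 1, a pantetheinase that frees cysteamine and pantothenate, the vitamin used to build coenzyme A. It stood at 25.3, 38.7 and 33.3 FPKM in Flox 1, 2 and 3 and at 27.6, 24.9 and 24.7 FPKM in HKO 1, 2 and 3. The HKO libraries lay close together, and Flox 1 lay among them. The means were 32.5 ± 6.73 and 25.7 ± 1.61 FPKM (SD, n = 3), with a log2 difference of -0.31 (95% interval -0.68 to 0.07, adjusted p = 0.685 in limma). It was -0.17 without Flox 2 and -0.47 without Flox 1.

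Fgf21 (ENSMUSG00000030827, chromosome 7, 45613886 to 45615490 on the minus strand) encodes a hormone that the liver secretes in fasting and after sugar or protein restriction. Its upstream sequence is shown because it holds matches to elements of more than 1 input, with the matches in capitals. They are the core TGATGNAA, read on the other strand, of elements that bind ATF4 in amino acid shortage, at 139 to 132 bases before the start, and the E-box CACGTG at 50 to 45 bases before it. Of 32851 mouse promoters of the same length in the table, 3.45% held the first and 6.02% the second on either strand.

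Fgf21, RefSeq GRCm38.p6, chr7:45615491-45615740, minus strand, 250 bases before the start: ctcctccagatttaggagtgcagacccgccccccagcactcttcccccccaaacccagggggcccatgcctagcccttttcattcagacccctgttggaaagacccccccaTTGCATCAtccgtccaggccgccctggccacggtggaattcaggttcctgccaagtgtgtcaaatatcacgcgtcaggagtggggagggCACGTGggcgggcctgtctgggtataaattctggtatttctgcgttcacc

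Fgf21 was measured at 4.45, 8.64 and 6.82 FPKM in Flox 1, 2 and 3, on 65, 122 and 109 reads. It was measured at 5.39, 9.89 and 8.62 FPKM in HKO 1, 2 and 3, on 91, 157 and 152 reads. Library 1 of each group was again the lowest of its group, and the groups overlapped. The means were 6.64 ± 2.10 and 7.97 ± 2.32 FPKM (SD, n = 3), or 20.1% higher in HKO, with a log2 difference of 0.24 (95% interval -0.40 to 0.87, adjusted p = 0.801 in limma). The difference was 0.01 without Flox 1 and 0.46 without HKO 1.

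Angptl4 (ENSMUSG00000002289, chromosome 17, 33773750 to 33781575 on the minus strand) encodes a secreted inhibitor of lipoprotein lipase, the enzyme that releases fatty acids from circulating triglyceride. It stood at 16.5, 31.3 and 26.2 FPKM in Flox 1, 2 and 3 and at 26.6, 23.2 and 26.6 FPKM in HKO 1, 2 and 3. All HKO libraries lay inside the Flox range, and Flox 1 was the lowest of the 6. The means were 24.6 ± 7.52 and 25.5 ± 1.99 FPKM (SD, n = 3), with a log2 difference of 0.09 (95% interval -0.43 to 0.61, adjusted p = 0.914 in limma). Without Flox 1 the direction turned, to -0.17.

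Txnip (ENSMUSG00000038393, chromosome 3, 96557957 to 96561883 on the plus strand) encodes an arrestin-like protein that binds thioredoxin and lowers glucose uptake. Its upstream sequence is shown because it carries the arrangement bound by ChREBP, 2 copies of CACGNG with 5 bases between, at 85 to 69 bases before the start. Only 15 of the 32851 promoters, or 0.0457%, hold this arrangement on either strand. The second match in capitals, at 121 to 115 bases before the start, is the forkhead core TGTTTAC on the other strand, which 3.17% of promoters hold.

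Txnip, RefSeq GRCm38.p6, chr3:96557707-96557956, plus strand, 250 bases before the start: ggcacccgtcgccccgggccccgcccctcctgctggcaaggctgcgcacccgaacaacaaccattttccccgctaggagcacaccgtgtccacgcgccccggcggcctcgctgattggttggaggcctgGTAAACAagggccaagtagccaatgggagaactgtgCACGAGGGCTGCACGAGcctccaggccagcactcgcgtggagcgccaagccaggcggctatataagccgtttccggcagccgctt

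Txnip was measured at 42.9, 71.0 and 97.8 FPKM in Flox 1, 2 and 3 and at 34.0, 57.8 and 59.1 FPKM in HKO 1, 2 and 3. Library 1 was the lowest of each group and Flox 3 the highest of all. The means were 70.6 ± 27.4 and 50.3 ± 14.1 FPKM (SD, n = 3), or 28.7% lower in HKO, with a log2 difference of -0.45 (95% interval -1.25 to 0.36, adjusted p = 0.73 in limma). The difference was -0.17 without Flox 3, -0.19 without HKO 1 and -0.76 without Flox 1, and array weights turned it to 0.0723. The exonic bases of Txnip overlap those of Gm15441 by 19.4%. Gm15441 is an antisense RNA known to be induced through PPARalpha in liver, and the library kit does not mark strand, so reads in the shared part could not be assigned to a strand. Flox libraries held 1, 2 and 1 of its reads and HKO libraries 7, 0 and 3, against 1885 to 5134 reads of Txnip, and it lay below the filter.

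Upstream sequence was found for 5 of the 7 genes (Pdk4, Creb3l3, Fgf21, Mgll and Txnip) and searched on both strands. A direct repeat of AGGNCA with 1 base between, the arrangement bound by PPARalpha with RXR, was in none of the 5 windows and in 0.338% of all promoters. Mgll held CACGTG at 44 to 39 bases and the forkhead core at 241 to 235 bases before its start, and the window of Creb3l3 held no match. The short CCAAT box, which 33.8% of promoters hold, was in those of Pdk4 (131 to 127 bases before the start, other strand) and Txnip (102 to 98, and 137 to 133 on the other strand), and it is not in capitals above. The window of Pdk4, 5496279 to 5496528 on chromosome 6, reaches into the gene as given above. Its positions thus count from a start other than 5496309. A missing match says only that these letters are not in the 250 bases.

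**Figure D2:**
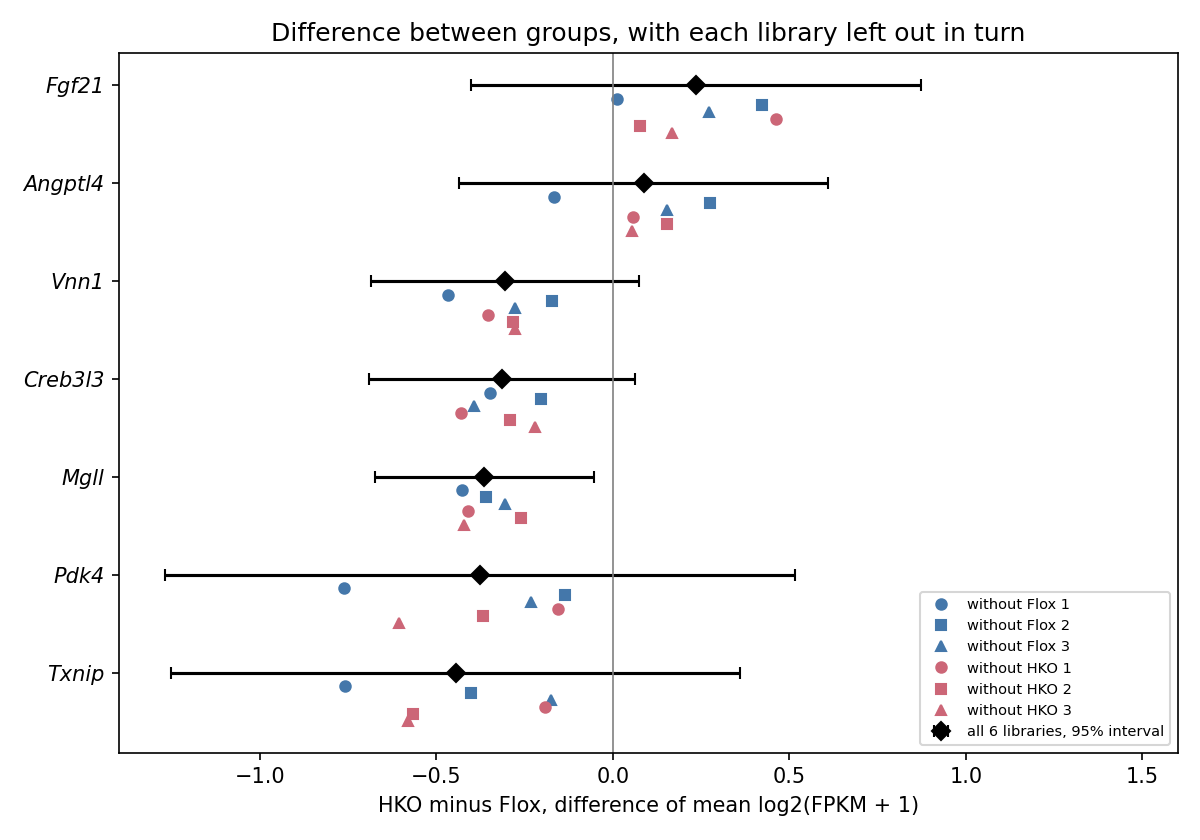
Difference between HKO and Flox (difference of mean log2(FPKM + 1)) for each gene, with its 95% interval from limma as a black bar and, below it, the value with each library left out (blue for Flox, red for HKO). The interval of Mgll, -0.67 to -0.05, is the one that does not reach 0, and the value of Angptl4 crosses 0 without Flox 1.

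Most of the 7 genes varied widely between libraries of 1 group. The residual SD within groups was above the median of all tested genes (0.16 on the log2 scale) in 6 of the 7, and its median over the 7 was 0.33. It reached 0.58 for Pdk4, 0.52 for Txnip and 0.41 for Fgf21, at the 96.7th, 95.8th and 92.4th percentile of all tested genes. Mgll had the smallest, 0.15, at the 48.1st percentile.

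The libraries that were high or low for 1 of the genes were often so for others. Values here are log2(FPKM + 1) centred on the mean of the 6 libraries. Pdk4 lay at -0.59 in Flox 1 and -0.63 in HKO 1, Txnip at -0.40 and -0.73 and Fgf21 at -0.57 and -0.33, and these were the lowest libraries for the 3 genes. Angptl4 was low in Flox 1 (-0.55) but not in HKO 1 (0.11). Creb3l3 followed another order and lay at 0.09 in Flox 1 and 0.08 in HKO 1, above HKO 2 and HKO 3 at -0.20 and -0.34. Averaged over the 7 genes, Flox 1 was lowest at -0.30 and Flox 2 and Flox 3 highest at 0.37 and 0.26. HKO 1, 2 and 3 lay between them at -0.24, -0.09 and 0.01.

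**Figure D3:**
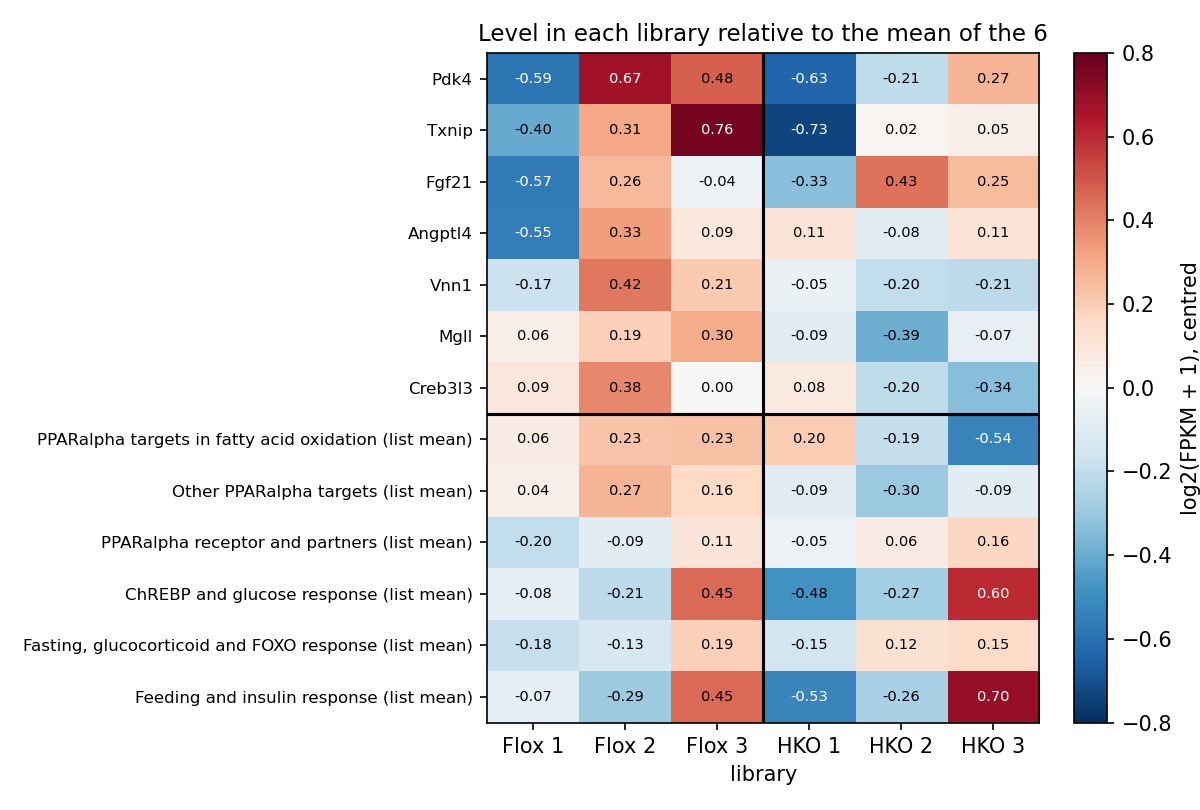
Heat map of log2(FPKM + 1) in each library (columns) minus the mean of the 6 libraries, for the 7 genes (upper rows) and for the mean of 6 gene lists (lower rows), red for above and blue for below. Flox 1 and HKO 1 are blue for Pdk4, Txnip and Fgf21, and HKO 3 is lowest (-0.54) for the fatty acid oxidation targets.

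Deviations from the group means gave the same picture. As a description over 6 libraries that share 2 group means, Pearson's r of these deviations was 0.86 between Pdk4 and Txnip, 0.86 between Pdk4 and Fgf21, 0.82 between Fgf21 and Txnip and 0.96 between Vnn1 and Angptl4. These were the highest values. Next came 0.81 between Pdk4 and Angptl4, 0.65 between Pdk4 and Vnn1 and 0.60 between Angptl4 and Mgll. In some pairs r was near 0 or negative, such as 0.02 between Creb3l3 and Mgll and -0.09 between Fgf21 and Mgll. It was -0.16 between Pdk4 and Creb3l3 and -0.48 between Creb3l3 and Txnip. Among 8948 protein-coding genes of at least 1 FPKM, the gene whose log2 values over the 6 libraries were most like a member was Faap100 for Pdk4 (r = 0.98), Trim23 for Txnip (0.98), Mmp15 for Fgf21 (0.99), Ppp2r1a for Angptl4 (0.96), Tmco6 for Vnn1 (0.99), Selenoo for Mgll (0.99) and Uqcc1 for Creb3l3 (0.996). With 6 libraries many genes reach such values. For Creb3l3, 98 genes had an r above 0.95.

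The receptor itself did not separate the groups. Ppara stood at 16.5, 17.9 and 29.2 FPKM in Flox and at 20.4, 26.3 and 23.5 FPKM in HKO (log2 difference 0.17, adjusted p = 0.819 in limma). Rxra, its partner, stood at 74.0, 79.98 and 92.0 FPKM in Flox and at 116, 93.3 and 102 FPKM in HKO. Every HKO library was above every Flox library for Rxra, and it did not pass (log2 difference 0.34, unadjusted p = 0.0431, adjusted p = 0.648 in limma). Of 16 tested genes of the receptor, its partners and cofactors, 12 had a higher and 4 a lower mean in HKO, with a median log2 difference of 0.14 against -0.01 over all tested genes. The median was 0.06 without HKO 2, 0.08 without Flox 2, 0.09 without Flox 1 (10 higher and 6 lower) and 0.23 without Flox 3. TPM gave 14 higher and 2 lower, or 4 lower once the shift in the all-gene median was taken off. Crebbp, an acetyltransferase that acts as a coactivator, had means of 1.57 ± 0.28 and 1.96 ± 0.17 FPKM (Flox and HKO, SD, n = 3), and the groups overlapped.

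Most other targets of PPARalpha also had a lower mean in HKO, and 0 of them passed in limma. Of 30 tested targets in fatty acid oxidation, 30 had a lower mean, against 51.2% of all tested genes, and the median log2 difference was -0.32. An unadjusted p under 0.05 was reached in limma by 5 of the 30, against 7.62% of all tested genes. With FPKM rescaled to TPM 23 of the 30 were lower, or 29 once the shift in the all-gene median was taken off. Quantile normalization gave 26. Without HKO 3 the count was 26 of 30 and the median -0.18. TPM gave a median of -0.15, or -0.30 with the shift in the all-gene median taken off. Acaa1b, a peroxisomal thiolase, stood at 583, 741 and 554 FPKM in Flox and at 363, 301 and 370 FPKM in HKO. Every HKO library was below every Flox library for Acaa1b, and it did not pass (adjusted p = 0.58 in limma). Such a split was seen in 7 of the 30, against 7.21% of all tested genes. Of 25 other targets 21 had a lower mean (19 under TPM, or 21 with that shift taken off). Of these 25, 5 had an unadjusted p under 0.05, and the median was -0.33. Without Flox 2, 18 of the 25 had a lower mean and the median was -0.24. The number was 19 with array weights or without HKO 3, and 23 without Flox 1. Aldh3a2, a fatty aldehyde dehydrogenase, had means of 92.2 ± 12.4 and 59.5 ± 7.71 FPKM (Flox, then HKO), Plin2, a lipid droplet coat protein, at 185.5 ± 38.7 and 121.5 ± 8.10, and Ephx2, an epoxide hydrolase, at 436 ± 63.8 and 303 ± 22.9 (SD, n = 3). Whether the 7 genes differ from these lists was not tested.

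The libraries ranked differently in the oxidation targets than in the 7 genes. The mean of the fatty acid oxidation targets, centred over the 6 libraries, was 0.06, 0.23 and 0.23 in Flox 1, 2 and 3 and 0.20, -0.19 and -0.54 in HKO 1, 2 and 3. HKO 3 was thus the lowest library for the oxidation targets and the highest HKO library for Pdk4 and Txnip, while Flox 1, lowest over the 7 genes, lay near the middle for the oxidation targets. Creb3l3 shared the order of the oxidation targets within HKO, from HKO 1 down to HKO 3. The centred mean of the 25 other targets was 0.04, 0.27 and 0.16 in Flox 1, 2 and 3. In HKO 1, 2 and 3 it was -0.09, -0.30 and -0.09. Flox 2 and Flox 3 were thus highest in the other targets, as over the 7 genes, while HKO 2 was lowest.

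**Figure D4:**
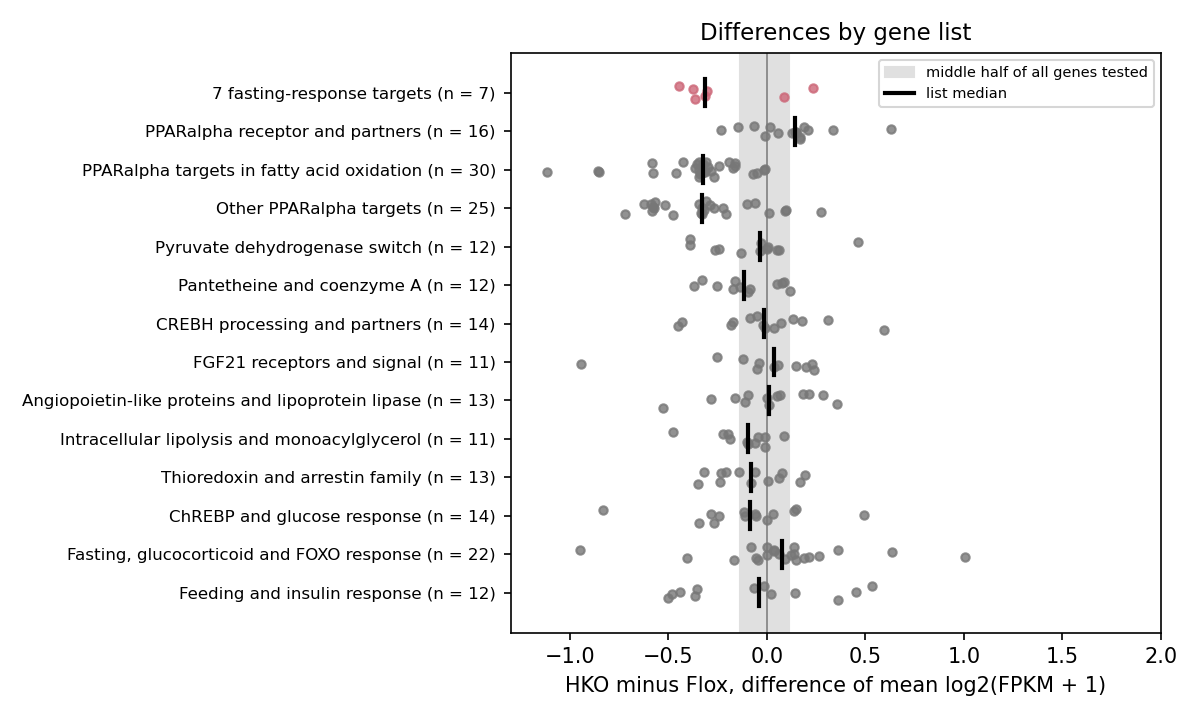
Difference between HKO and Flox (difference of mean log2(FPKM + 1)) of each tested gene, by list, with the list median as a black bar and the middle 50% of all tested genes in grey. The medians of the 7 genes (-0.31) and of the 2 lists of other PPARalpha targets (-0.32 and -0.33) lie left of the grey band, and that of the receptor and its partners (0.14) lies right of it.

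Genes that work beside each member were read from lists of related genes. Over 202 tested genes of these and the 3 PPARalpha lists, 0 passed in limma and 0 with voom, and 18 and 27 had an unadjusted p under 0.05. Over all 11856 tested genes 904 had such a p in limma and 919 with voom. Under TPM, which moved the median of all tested genes to 0.15, fewer genes of the lists that follow had a lower mean. The number was 4 of 12 for the pyruvate dehydrogenase switch, 3 of 12 for pantetheine and coenzyme A and 4 of 14 for CREBH. It was 2 of 11 for FGF receptors, 3 of 13 for angiopoietin-like genes and 6 of 13 for the thioredoxin and arrestin family. Once the shift in the all-gene median was taken off, the numbers were 7, 8, 7, 5, 5 and 8 in the same order. Beside Pdk4, of 12 genes of the pyruvate dehydrogenase switch 7 had a lower and 5 a higher mean. Pdk2, another kinase of the complex that liver expresses, stood at 40.4, 40.0 and 38.0 FPKM in Flox and at 28.5, 27.4 and 34.2 FPKM in HKO. The phosphatase gene Pdp2, which acts against the kinases, stood at 8.24, 9.88 and 9.31 FPKM and at 6.54, 6.99 and 6.70 FPKM. For Pdk2 and Pdp2 no HKO library reached a Flox library, and they did not pass (adjusted p = 0.648 and 0.58 in limma). Pdpr, of the same list, had a higher mean in HKO (log2 difference 0.46, unadjusted p = 0.0398, adjusted p = 0.648 in limma). The groups overlapped for Pdpr.

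Beside Vnn1, of 12 genes of pantetheine and coenzyme A metabolism 8 had a lower and 4 a higher mean. Vnn3, the neighbouring vanin gene, stood at 38.9, 44.7 and 48.0 FPKM in Flox and at 43.2, 31.6 and 30.3 FPKM in HKO, so that HKO 1 lay inside the Flox range as it did for Vnn1. Slc25a42, a mitochondrial carrier of coenzyme A, stood at 16.2 ± 2.23 and 12.3 ± 0.42 FPKM (SD, n = 3), without overlap. Beside Creb3l3, of 14 genes of CREBH processing, related factors and its targets 8 had a lower and 6 a higher mean, and 0 had an unadjusted p under 0.05. Every HKO library was above every Flox library in 2 of the 14, Apcs and Apoc2, and below in 0. Apcs stood at 92.6, 92.0 and 73.0 FPKM in Flox and at 192.5, 112.9 and 99.5 FPKM in HKO (adjusted p = 0.651 in limma). Apoc2 rested on 8 to 23 reads per library.

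Beside Fgf21, of 11 genes of FGF receptors and related stress signals 5 had a lower and 6 a higher mean, and 0 had an unadjusted p under 0.05. Klb, the coreceptor that hepatocytes use for FGF signals, stood at 7.14, 6.74 and 9.57 FPKM in Flox and at 7.75, 12.2 and 8.49 FPKM in HKO. Gdf15, another stress hormone, stood at 18.8, 53.3 and 18.5 FPKM in Flox and at 14.1, 27.8 and 5.82 FPKM in HKO, with library 2 the highest of each group. Beside Angptl4, of 13 angiopoietin-like and lipoprotein lipase genes 5 had a lower and 8 a higher mean. Every HKO library was above every Flox library in 1 of the 13, Angptl2, and below in 0. Angptl2 stood at 2.05, 1.65 and 2.12 FPKM in Flox and at 2.28, 2.13 and 2.62 FPKM in HKO (adjusted p = 0.688 in limma). Angptl8, which acts on lipoprotein lipase in the fed state, had means of 193 ± 109 and 117.5 ± 16.2 FPKM (Flox and HKO, SD, n = 3). Angptl8 varied from 77.5 to 294 FPKM within Flox.

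Beside Mgll, of 11 tested lipase and monoacylglycerol genes 10 had a lower and 1 a higher mean. Under other scalings the number with a lower mean was 6 (quantile normalization), 6 (assigned reads) and 5 (TPM). Once the shift in the all-gene median was taken off, the numbers were 6, 8 and 8. Lipe, hormone-sensitive lipase, stood at 2.17, 2.88 and 2.29 FPKM in Flox and at 1.95, 1.10 and 1.43 FPKM in HKO, and Faah, which degrades the other main endocannabinoid, at 22.8, 25.6 and 21.7 and at 20.5, 19.9 and 20.4 FPKM. Groups did not overlap for either, and neither passed (adjusted p = 0.648 and 0.678 in limma). Pnpla2, the lipase that starts triglyceride breakdown, stood at 20.1, 24.4 and 24.3 FPKM in Flox and at 22.2, 18.3 and 19.5 FPKM in HKO, and the groups overlapped.

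Beside Txnip, of 13 thioredoxin and arrestin family genes 8 had a lower and 5 a higher mean, and 0 had an unadjusted p under 0.05. Arrdc4, its closest relative in the response to glucose, stood at 2.88, 2.08 and 3.49 FPKM in Flox and at 2.75, 3.62 and 2.66 FPKM in HKO, and library 1 was not the lowest in either group. Txn1, thioredoxin, stood at 208.5 ± 31.5 and 166.9 ± 26.7 FPKM (SD, n = 3). Mlxipl, which encodes ChREBP, stood at 23.9, 27.7 and 27.0 FPKM in Flox and at 19.9, 22.3 and 23.7 FPKM in HKO. Every HKO library was below every Flox library for Mlxipl, and it did not pass (log2 difference -0.24, adjusted p = 0.667 in limma). Of 14 genes of ChREBP and the glucose response 10 had a lower and 4 a higher mean, a split that rested on single libraries. The number with a lower mean was 6 without HKO 1 (median log2 difference 0.05), 7 without Flox 3 or without HKO 2, and 13 without HKO 3 (median -0.43). It was 6 with array weights and 5 under TPM, or 9 under TPM once the shift in the all-gene median was taken off. Klf10, a glucose-responsive repressor, stood at 15.2, 8.72 and 12.3 FPKM in Flox and at 3.51, 6.04 and 10.8 FPKM in HKO.

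Genes that respond to feeding or to fasting varied between libraries of each group. The centred mean of 12 feeding and insulin response genes was -0.07, -0.29 and 0.45 in Flox 1, 2 and 3 and -0.53, -0.26 and 0.70 in HKO 1, 2 and 3. Flox 3 and HKO 3 were thus high and HKO 1 low, as they were for Txnip in the case of Flox 3 and HKO 1. The centred mean of 22 fasting, glucocorticoid and FOXO response genes was -0.18, -0.13 and 0.19 in Flox and -0.15, 0.12 and 0.15 in HKO. Flox 3 and HKO 3 were highest in both lists, so the lists did not run opposite to each other there. HKO 2 was at -0.26 in the feeding list and at 0.12 in the fasting list. Of the 22 genes of the fasting list, 16 had a higher and 6 a lower mean in HKO. The number with a lower mean was 10 without Flox 2 or without HKO 2, 9 without Flox 1 and 3 under TPM. With the shift in the all-gene median taken off, it was 6 under TPM. Within them Tsc22d3, a glucocorticoid-induced gene, stood at 16.3 ± 4.68 and 25.3 ± 3.73 FPKM and Cebpb at 125.7 ± 32.4 and 65.9 ± 22.1 FPKM (SD, n = 3), each without overlap and with an adjusted p of 0.648 in limma. The part of nutritional state in the levels of the 7 genes was not tested.

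Markers of other cell types were read because several of the 7 genes are active in fat, muscle and macrophages too. Of 6 adipocyte markers 5 lay below the filter, Adipoq was at 0 in all 6 libraries and Lep and Plin1 were at most 0.053 FPKM. The sum of the 6 ranged from 1.32 to 18.6 FPKM in Flox and from 0.39 to 6.05 in HKO, nearly all of it Cfd. Of 5 skeletal muscle markers 4 lay below the filter, with Ckm and Tnnt3 at 0 in every library. All 7 Kupffer cell markers had a higher mean in HKO, and 0 of them passed in limma. Their summed levels were 77.7 to 149.5 FPKM in Flox and 126 to 205 in HKO, and these ranges overlapped. Vsig4 stood at 12.2 ± 1.83 and 22.5 ± 5.47 FPKM (SD, n = 3, adjusted p = 0.58 in limma). Of 6 hepatocyte markers 5 had a lower mean on the log2 scale (46764 to 49238 FPKM summed in Flox and 41157 to 49675 in HKO). For Alb that difference was -0.007, and its mean FPKM was 29563 in Flox and 29613 in HKO. Under TPM 3 of the 6 were lower, or 4 once the shift in the all-gene median was taken off. Of 4 tested erythroid markers 4 had a lower mean and 0 passed in limma, with summed levels of 286 to 321 FPKM in Flox and 131 to 262 in HKO. Summed endothelial markers ranged from 18.5 to 25.6 FPKM in Flox and 22.5 to 28.2 in HKO, stellate cell markers from 33.1 to 41.7 and 32.4 to 46.3, and cholangiocyte markers from 25.8 to 34.0 and 27.5 to 32.1. Neutrophil, B cell and T cell markers summed to at most 5.44 FPKM in any library. The part of these cell types in the levels of the 7 genes was not tested.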

How the data were processed

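The authors deposited 1 table of FPKM values for 6 liver libraries, with a gene length per gene, and replicates were not pooled. The submitters' processing notes name GRCm38 and mm10. Aligner, counting tool and gene annotation: not given in the sources used here. Within each library, FPKM multiplied by length came in steps of 1 read (100% of values whole within 0.02), which gave reads for 1 alternative test and for counting intervals. Libraries were compared on log2(FPKM + 1) with limma 3.58.1 in R 4.3.3 (trend, robust, statmod 1.5.0), two-sided, with Benjamini-Hochberg adjustment over all 11856 genes tested. A fold on this scale understates the change of low genes. Pairs, cell markers and other lists were described with counts and medians. No transcript of another gene matched a member at 97% identity over 80% of its length (blastn 2.17.0, GENCODE M21, which holds 99.8% of the gene identifiers). The members, lists and tests were chosen with earlier results of these data known. Named beside the members are up to 4 genes per list with the smallest p, 10 fixed partner genes and the most alike gene of each member. Some genes that this rule names are not reported here. The 2 antisense genes were named for their overlap. Other scalings, filters, weights, a replicate block and leaving out each library were tried. The script was tested on simulated data.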

Additional observations from a re-analysis of the deposited data

How the results depend on the processing

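In 15 alternatives, 0 of the 7 genes passed and 101 of 104 differences kept their direction. The exceptions were Pdk4 and Txnip with array weights (0.18 and 0.0723, Flox 1 weighted 3.49 and Flox 3 0.42), where 3 of 7 genes had a lower mean, and Angptl4 without Flox 1 (leaving out libraries gave -0.17 to 0.28). Rescaling to TPM moved the median of all genes to 0.15. Relative to it, the 7 differences ran from -0.43 (Pdk4) to 0.27 (Fgf21), with 5 lower. Over all genes, the count called lower was 0 with no filter, 2 at a mean FPKM of at least 5, 3 with voom and 3 with array weights. It was 0 without Flox 1, Flox 2, HKO 2 or HKO 3 and 12 without HKO 1, and the count called higher ran from 0 to 1 (without HKO 1). With the replicate number as a block (replicate block) it was 0. Same-numbered libraries correlated at 0.02, 0.01 and 0.07 in their deviations, so the numbers were not taken as pairs. Pdk4 could not be fitted at a mean of 5 FPKM, being below it. Fgf21 and Pdk4 rest on 65 to 248 reads per library.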
